A study of Mus musculus with 8 samples.

Results

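The genes described here are 10 members of the BCL2 family, which decides whether a cell keeps or loses its mitochondrial outer membrane. They were picked by symbol: the anti-apoptotic genes Bcl2, Bcl2l1 (BCL-XL), Bcl2l2 (BCL-W) and Mcl1, the effectors Bax and Bak1, and the BH3-only genes Bcl2l11 (BIM), Bbc3 (PUMA), Bad and Bid. They are 10 of 55536 genes in the deposited count table, and all 10 were among the 16333 genes with enough counts to be tested.

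In the mitochondrial pathway of apoptosis, BAX and BAK oligomerise in the outer membrane and release cytochrome c, which activates caspases. Anti-apoptotic members hold BAX and BAK, and the BH3-only proteins that trigger them, in inactive complexes. BH3-only proteins sense stress and either occupy the anti-apoptotic members or activate the effectors directly, so the balance between the classes sets how readily a cell dies.

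Poly(A) RNA was sequenced from alphaTC6, a mouse pancreatic alpha cell line labelled wild type, 48 h after reverse transfection with a lipid reagent carrying either a scramble siRNA or a pool of siRNAs against Klf4, a zinc-finger transcription factor. The design text gives 4 biological replicates per treatment and states the aim of learning what Klf4 regulates in alpha cells. Batch 1 held scramble replicates 1 and 2 and Klf4 siRNA replicates 1, 2 and 4, and batch 2 held scramble replicates 3 and 4 and Klf4 siRNA replicate 3; what the batches were is not stated. All libraries come from 1 cell line, and the extraction text names islets where the sample labels name the cell line.

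Assigned reads per library ranged from 45954151 to 64185987, and a member had between 651 and 7391 counts in any library. Klf4 (chr4:55527143-55532466, minus strand) stood at 39.2, 35.1, 46.3 and 46.8 CPM (counts scaled to a common library size) in scramble replicates 1 to 4 and at 12.5, 11.5, 19.8 and 18.8 CPM with Klf4 siRNA, replicates 1 to 4 each. Its log2 difference was -1.33 (edgeR quasi-likelihood test with Benjamini-Hochberg adjustment, adjusted p = 0.0083), but leaving out scramble replicate 1 gave an adjusted p of 0.0524, and batch 1 alone gave 0.104. All 6 alpha cell markers listed for this check passed the count filter, with a summed level of 2180.5 to 10064 CPM with scramble and 2011.1 to 8812.5 CPM with Klf4 siRNA. The beta cell hormones Ins1 and Ins2 were at 0 counts in every library, and the summed beta cell list lay between 3.17 and 3.91 CPM with scramble and between 3.09 and 3.93 CPM with Klf4 siRNA. The summed lists for acinar, ductal, fibroblast, endothelial, delta, PP and immune cells did not exceed 7.31 CPM in any library.

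Klf4 siRNA was accompanied by lower transcript levels of 3 of the 10 members: Mcl1, the anti-apoptotic gene with the highest level per length, and Bcl2l11 and Bid, which encode BH3-only proteins. Mcl1 stood at 85.8% of scramble, Bcl2l11 at 87.7% and Bid at 83.3%. The other 7 members did not pass the adjusted threshold of 0.05, and both effectors were among them. Over all tested genes 11.7% passed, 6.81% as lower and 4.88% as higher in Klf4 siRNA libraries, beside which the members gave 3 of 10 lower and 0 of 10 higher. The share is larger among better expressed genes: 2010 of 10387 passed with a filter at a mean of 5 CPM. All members stood at the 47.8 percentile of level or above. The median log2 difference of the 10 members was -0.08, against 4.3e-05 over all tested genes. Within both batches 7 of the 10 were lower with Klf4 siRNA, Bcl2 by only -0.02 in batch 2. The matching share of all tested genes was not counted, and batch 2 has 1 Klf4 siRNA library. In the fit of both batches the sign was negative for 7 members and for 8161 of the 16333 tested genes. In bulk RNA, fewer cells expressing a gene and less RNA per cell cannot be told apart.

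Among the anti-apoptotic genes, Mcl1 (chr3:95658788-95663176, plus strand), whose short-lived protein binds BIM and BAK, had 109.9, 113.3, 115.3 and 117.3 CPM in scramble replicates 1 to 4. In Klf4 siRNA replicates 1 to 4 it had 91.8, 92.4, 104.6 and 95.5 CPM. Every Klf4 siRNA library was below every scramble library, and the highest of the former was replicate 3, the only one from batch 2. The means were 114.0 ± 3.18 CPM with scramble and 96.1 ± 5.91 CPM with Klf4 siRNA (SD, n = 4 each). The log2 difference of -0.22 (standard error 0.031, 95% interval -0.28 to -0.16) had an edgeR adjusted p of 4.6e-05. It was -0.26 within batch 1 and -0.15 within batch 2, and it passed in all 17 alternative analyses.

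Bcl2 (chr1:106538178-106714274, minus strand), the founding anti-apoptotic member, had 75.3, 77.1, 68.8 and 65.5 CPM with scramble and 71.0, 70.1, 66.4 and 66.5 CPM with Klf4 siRNA, replicates 1 to 4 each. The groups overlapped over all libraries, while within batch 1 both scramble libraries were above all 3 Klf4 siRNA libraries. The log2 difference was -0.10 (95% interval -0.17 to -0.02), and its edgeR adjusted p was 0.0777. Bcl2 did pass when scramble replicate 4 was left out (0.0317), when Klf4 siRNA replicate 3 was left out (0.0468) and in batch 1 alone (0.0418). Bcl2l1 (chr2:152780668-152831728, minus strand), which encodes the BCL-XL protein, had 41.7, 42.7, 44.3 and 45.5 CPM with scramble and 42.2, 42.0, 45.3 and 42.7 CPM with Klf4 siRNA. Its levels interleaved, and its log2 difference was 0.0061 with a 95% interval of -0.06 to 0.07 (edgeR adjusted p = 0.943). Bcl2l2 (chr14:54883377-54888234, plus strand), the gene of BCL-W, had 24.6, 25.9, 26.3 and 26.8 CPM with scramble and 25.1, 24.9, 24.7 and 23.8 CPM with Klf4 siRNA. The groups overlapped through scramble replicate 1, and the log2 difference of -0.06 (95% interval -0.15 to 0.03) did not pass (edgeR adjusted p = 0.444). Of the 4 anti-apoptotic genes 1 passed, and their median log2 difference was -0.08.

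**Figure D1:**
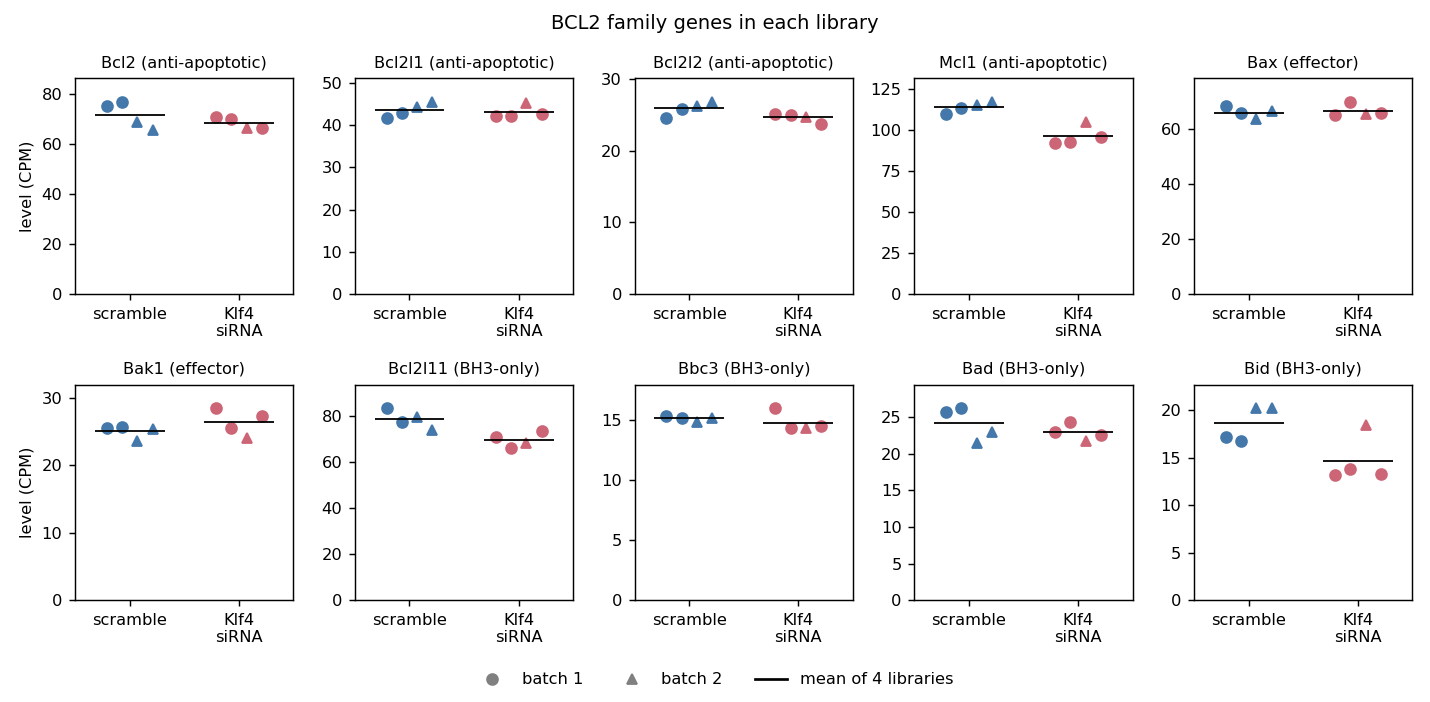
CPM of each member in the 8 libraries, by treatment, on axes that start at 0. Circles are batch 1, triangles are batch 2 and the line is the mean of 4 libraries. The treatments do not overlap for Mcl1 and Bcl2l11, and the batch 2 library of the Klf4 siRNA group is its highest for Mcl1 (104.6 CPM) and Bid (18.4 CPM).

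The effectors Bax and Bak1, which form the pores in the outer membrane, gave intervals around 0. Bax (chr7:45461697-45466898, minus strand) had 68.0, 65.6, 63.3 and 66.3 CPM with scramble and 65.1, 69.8, 65.3 and 65.8 CPM with Klf4 siRNA, replicates 1 to 4 each. The groups lay over each other, with the highest value in Klf4 siRNA replicate 2, and the log2 difference was 0.0053 with a 95% interval of -0.06 to 0.07 (edgeR adjusted p = 0.953). Bak1 (chr17:27019810-27029009, minus strand) had 25.6, 25.7, 23.6 and 25.4 CPM with scramble and 28.6, 25.5, 24.1 and 27.3 CPM with Klf4 siRNA. Klf4 siRNA replicates 1 and 4 were above every scramble library and replicates 2 and 3 were not. The log2 difference of Bak1 was 0.04 (95% interval -0.05 to 0.14; edgeR adjusted p = 0.639). Exons of Bax and of Bak1, like those of Bcl2 and Bcl2l2, share bases with another annotated gene, while those of Bcl2l1, Mcl1, Bcl2l11 and Bbc3 share none.

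Of the 4 BH3-only genes 2 passed, both lower, and the signs of all 4 were negative, with a median log2 difference of -0.15. Bcl2l11 (chr2:128126038-128162547, plus strand) encodes BIM, which binds every anti-apoptotic member and can activate BAX. Bcl2l11 had 83.6, 77.5, 79.5 and 73.8 CPM in scramble replicates 1 to 4 and 70.8, 66.2, 68.3 and 73.4 CPM with Klf4 siRNA, replicates 1 to 4 each. The groups did not overlap, although scramble replicate 4 and Klf4 siRNA replicate 4 were close. The means were 78.6 ± 4.07 and 69.7 ± 3.12 CPM (SD, n = 4 each). The log2 difference was -0.19 (standard error 0.038, 95% interval -0.27 to -0.11; edgeR adjusted p = 0.00242), with -0.20 within batch 1 and -0.17 within batch 2. It passed in 16 of 17 alternative analyses and not in the fit with no batch term, where the adjusted p was 0.0959.

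Bid (chr6:120891930-120916853, minus strand), whose product is cut by caspase-8 and links death receptors to mitochondria, had 17.2, 16.8, 20.2 and 20.3 CPM in scramble replicates 1 to 4. Klf4 siRNA replicates 1, 2 and 4 had 13.2, 13.8 and 13.3 CPM, and replicate 3 had 18.4 CPM. Over all libraries the groups overlapped because replicate 3, from batch 2, was above both scramble libraries of batch 1. Within each batch every scramble library was above every Klf4 siRNA library. The means were 18.6 ± 1.88 and 14.7 ± 2.52 CPM (SD, n = 4 each). The log2 difference in the fit with batch was -0.26 (standard error 0.052, 95% interval -0.37 to -0.16; edgeR adjusted p = 0.00182), with -0.34 within batch 1 and -0.14 within batch 2. Without a batch term the adjusted p was 0.200, the only one of 17 alternatives in which Bid did not pass. Exons of Bid share 628 bases (17.69% of its exonic length) with Bcl2l13 on the opposite strand, and the use of strand in counting is not given in the sources used here. Bcl2l13 itself had a log2 difference of -0.03 (edgeR adjusted p = 0.582).

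Bad (chr19:6941861-6951899, plus strand), whose protein is inactivated by AKT phosphorylation, had 25.7, 26.3, 21.5 and 23.0 CPM with scramble and 22.9, 24.3, 21.7 and 22.6 CPM with Klf4 siRNA, replicates 1 to 4 each. Within batch 1 the scramble libraries were above the Klf4 siRNA libraries, and over both batches the groups overlapped. The log2 difference of -0.11 (95% interval -0.21 to -0.02) had an unadjusted p of 0.022 and an edgeR adjusted p of 0.124. Exons of Bad share 524 bases (20.48%) with Gpr137 on the opposite strand. Bbc3 (chr7:16308393-16318205, plus strand), the p53-induced gene of PUMA, had 15.3, 15.1, 14.8 and 15.1 CPM with scramble and 15.98, 14.3, 14.3 and 14.4 CPM with Klf4 siRNA. The 4 scramble libraries lay between the Klf4 siRNA extremes, and the log2 difference was -0.04 (95% interval -0.16 to 0.07; edgeR adjusted p = 0.697). An unadjusted p under 0.05 was found for 5 of the 10 members, the 3 that passed, Bcl2 and Bad, against 23.9% of all tested genes. The libraries of the 2 treatments did not overlap for 2 of 10 members, Mcl1 and Bcl2l11, against 10.5% of all tested genes. Within batch 1 alone they did not overlap for 5 members, namely Bcl2, Mcl1, Bcl2l11, Bad and Bid, against 37.5% of tested genes.

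**Figure D2:**
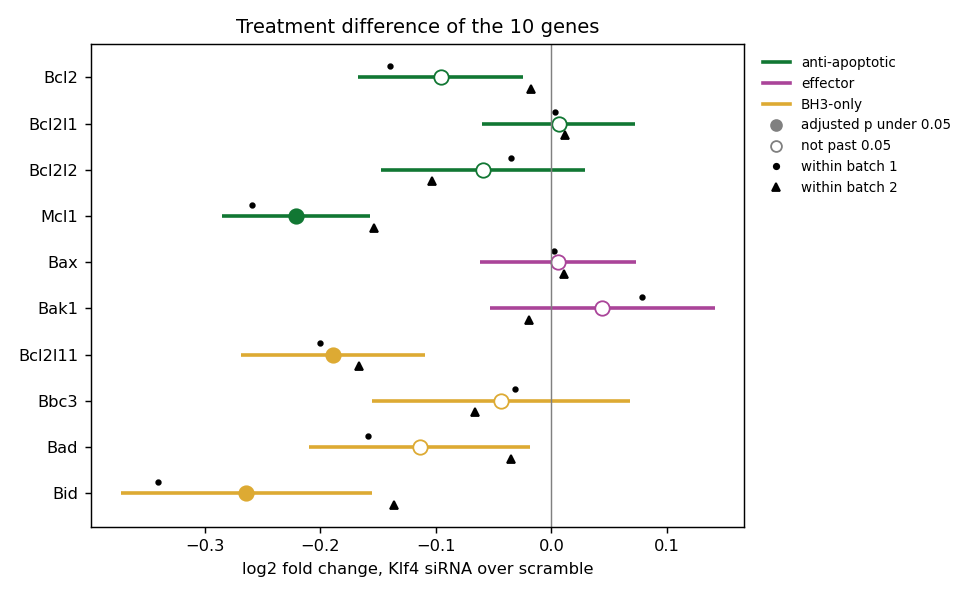
Log2 difference of Klf4 siRNA from scramble for each member with its 95% interval from edgeR, filled where the adjusted p was under 0.05. Small symbols give the difference within batch 1 and within batch 2; those of Mcl1, Bcl2l11 and Bid are all below 0.

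Levels of different genes were compared as RPKM, the CPM divided by the kilobases of exon. In scramble libraries Bax was highest at 41.7 RPKM on average, above Mcl1 at 33.3 RPKM, and no library of either gene overlapped the other. Below Mcl1, and not overlapping it, came Bak1 at 10.4, Bcl2l11 at 9.79, Bcl2l1 at 9.50, Bad at 9.43, Bcl2 at 7.83 and Bbc3 at 7.10 RPKM. Within these 6 each gene overlapped its neighbour in the order, so neighbours were not separated beyond the spread of 4 libraries. Genes further apart could be: no scramble library of Bak1, Bcl2l11 or Bcl2l1 was as low as the highest of Bcl2 or Bbc3. Bcl2l2 at 5.80 and Bid at 5.25 RPKM were lowest; they overlapped each other, and Bcl2l2 did not overlap Bbc3. Dividing by the longest transcript in place of all exons kept Bax and Mcl1 as the first and second genes and reordered the middle set. Bcl2l1 then went from 9.50 to 16.96 RPKM and took the third place, and Bak1 moved to the sixth.

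**Figure D3:**
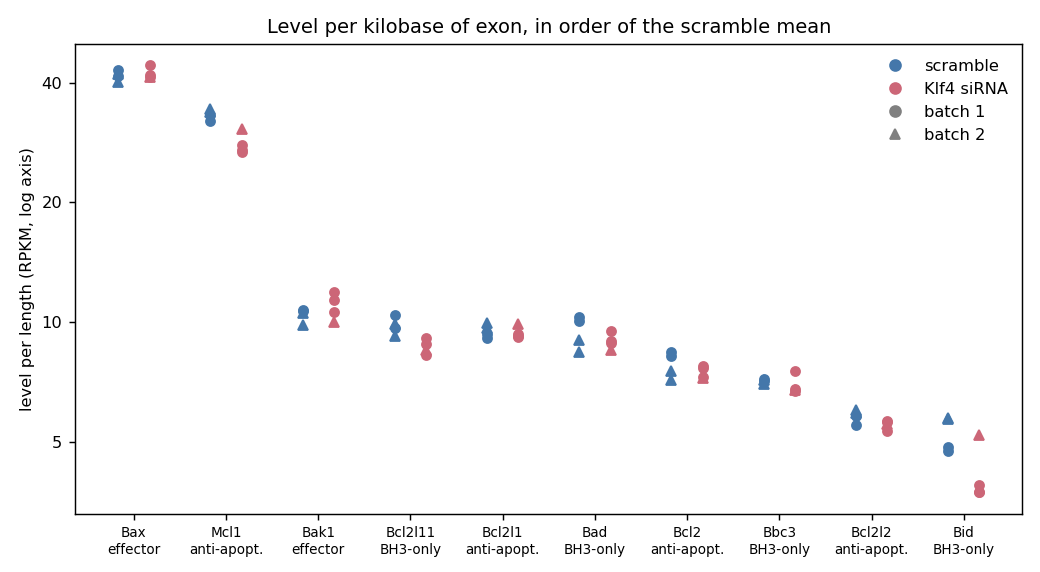
RPKM of each member in the 8 libraries on a log axis, in the order of the scramble mean. Bax (41.7 RPKM) and Mcl1 (33.3 RPKM) stand above the other 8 members, whose scramble means run from 10.4 to 5.25 RPKM.

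Summed over each class, the anti-apoptotic genes had 55.0 to 57.4 RPKM in scramble and 49.4 to 53.3 RPKM in Klf4 siRNA libraries. The BH3-only genes summed to 31.0 to 32.5 RPKM in scramble and 28.3 to 29.0 RPKM in Klf4 siRNA libraries, and the effectors to 49.98 to 53.8 and 51.4 to 54.9 RPKM. The first and the second of these sums did not overlap between treatments, and the effector sums did. As a share of the 10-gene total, the effectors took 36.3% to 38.1% in scramble and 38.5% to 41.4% in Klf4 siRNA libraries. The shares of the anti-apoptotic genes (38.9% to 41.2% and 37.3% to 39.9%) and of the BH3-only genes (22.0% to 23.0% and 21.4% to 22.1%) overlapped between treatments. These sums and shares restate the levels of the members above and are a description with no test. The ratio of Mcl1 to its partner Bcl2l11 was 3.09, 3.44, 3.41 and 3.73 in scramble and 3.04, 3.28, 3.60 and 3.06 in Klf4 siRNA replicates 1 to 4, so the ratios overlapped. The ratio of Mcl1 to Bak1 was 3.02, 3.10, 3.44 and 3.26 in scramble and 2.26, 2.55, 3.05 and 2.46 in Klf4 siRNA libraries. Klf4 siRNA replicate 3 fell among the scramble values of that ratio and the other 3 were below them.

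In the main fit more members differed by batch than by treatment, which did not hold without Klf4 siRNA replicate 3. With treatment in the fit, 5 of 10 members differed between batches, 3 higher and 2 lower in batch 2, against 32.7% of all tested genes, 16.8% higher and 15.9% lower. The split of directions moved with the scaling: with library size alone, 1 member was higher and 3 were lower in batch 2, beside 2111 higher and 3316 lower among all tested genes. Bid had the largest batch difference of the 10, at 0.34 on the log2 scale (standard error 0.053; edgeR adjusted p = 4.26e-05), or 1.26-fold higher in batch 2. Mcl1 was 0.11 higher (edgeR adjusted p = 0.0135), a call lost without Klf4 siRNA replicate 3 (0.319) and with scaling by library size alone (0.161). Bcl2l1 was 0.09 higher (edgeR adjusted p = 0.0342), and this passed in 4 of 14 alternatives, with adjusted p up to 0.280. Bcl2 differed by -0.13 (edgeR adjusted p = 0.00721) and Bad by -0.17 (edgeR adjusted p = 0.00812), both lower in batch 2. For Bcl2, Bad and Bid the batch difference passed in 14 of 14 alternatives. The batches did not overlap for 3 of the 10 members, Bcl2l1, Bak1 and Bid, against 29.4% of tested genes. For Bak1 the batch difference of -0.11 did not pass (edgeR adjusted p = 0.0848). Of the 6 alpha cell markers, 4 also differed by batch and 3 by treatment. Gcg, the glucagon gene that defines alpha cells, was 6.97-fold higher in batch 2 and had a treatment log2 difference of -0.18 (edgeR adjusted p = 0.00954). The part of these markers in the member differences was not tested.

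For each of the 3 members that passed by treatment, the estimate was larger in batch 1 than in batch 2, and the difference between batches was examined with an interaction term. None of the 16333 genes passed in edgeR's quasi-likelihood test, 540 had an unadjusted p under 0.05, and every member had an adjusted p of 0.999. The unadjusted interaction p was 0.0598 for Bid, 0.107 for Mcl1 and 0.701 for Bcl2l11. Batch 2 holds a single Klf4 siRNA library, so the treatment estimate there rests on that library, and without scramble replicate 3 the interaction count over all genes was 13.

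**Figure D4:**
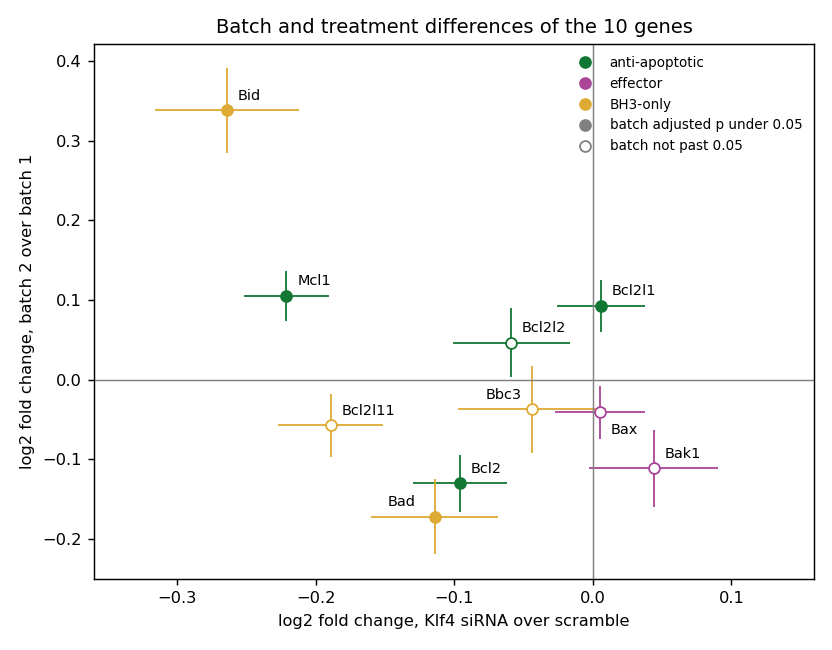
Log2 difference between batches against log2 difference between treatments for the 10 members, with standard errors, filled where the batch difference had an adjusted p under 0.05. Bid and Mcl1 are higher in batch 2 (0.34 and 0.11) and lower with Klf4 siRNA (-0.26 and -0.22), while Bcl2l11 is lower with Klf4 siRNA (-0.19) with a batch difference of -0.06.

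Sequence upstream of the start sites was read from RefSeq promoters of GRCm38.p6, with 16 windows for the 10 members. KLF proteins bind GT-rich and GC-rich words through zinc fingers, so both strands of the 250 bases before each start were searched for GGGTGTGG and for the looser GGGNGNGG, which includes the former and also covers GC boxes of other factors. GGGTGTGG was present in 3.2% of 32851 promoters and in 2 of the 16 member windows, both of Bbc3, where overlapping windows hold the same site. By gene, this was 3.68% of 27025 genes and 1 of the 10 members. GGGNGNGG was present in 45.93% of all promoters and in 11 of the 16 member windows. By gene, this was 48.46% of the 27025 genes and 8 of the 10 members. The windows of Mcl1 and Bak1 had none. Shown are the 3 genes that were lower with Klf4 siRNA and the Bbc3 window with GGGTGTGG, on the strand of the gene, with every matching word of either strand in capitals. They are Mcl1 (chr3:95658471-95658720, plus strand), Bcl2l11 at its first start (chr2:128125788-128126037, plus strand), Bid (chr6:120916854-120917074, minus strand, the part outside exons) and Bbc3 at its second start (chr7:16310011-16310260, plus strand).
Mcl1: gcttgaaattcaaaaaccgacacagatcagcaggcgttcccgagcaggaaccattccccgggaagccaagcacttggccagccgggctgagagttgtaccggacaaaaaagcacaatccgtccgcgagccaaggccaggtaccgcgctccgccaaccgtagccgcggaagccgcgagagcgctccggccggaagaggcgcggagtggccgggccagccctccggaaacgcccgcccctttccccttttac
Bcl2l11: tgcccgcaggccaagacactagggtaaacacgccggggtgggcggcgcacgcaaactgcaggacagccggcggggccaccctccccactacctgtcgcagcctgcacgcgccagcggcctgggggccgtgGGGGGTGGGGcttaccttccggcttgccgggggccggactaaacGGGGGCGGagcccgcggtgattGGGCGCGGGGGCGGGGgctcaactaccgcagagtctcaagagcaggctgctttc
Bid: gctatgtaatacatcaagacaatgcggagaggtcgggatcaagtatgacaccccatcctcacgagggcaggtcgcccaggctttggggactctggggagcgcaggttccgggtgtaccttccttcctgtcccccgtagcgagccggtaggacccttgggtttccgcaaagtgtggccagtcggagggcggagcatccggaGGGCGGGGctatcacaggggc
Bbc3: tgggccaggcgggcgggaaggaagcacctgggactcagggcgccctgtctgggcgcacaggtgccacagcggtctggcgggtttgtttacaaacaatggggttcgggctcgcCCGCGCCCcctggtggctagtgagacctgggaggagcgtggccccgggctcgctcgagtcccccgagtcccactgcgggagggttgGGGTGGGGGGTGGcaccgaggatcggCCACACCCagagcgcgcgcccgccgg
The Mcl1 stretch has no capitals, the Bid stretch has 1 GGGNGNGG word and the Bcl2l11 stretch has 6 that partly overlap. In Bbc3, whose level did not pass the test, CCACACCC near the start is the reverse complement of GGGTGTGG. Of the 2 genes without either word in these windows, Mcl1 passed the treatment test and Bak1 did not. A match in these letters is not a measured binding site.

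Around the 10 members, 58 further genes of the pathway were listed by role. Of these, 41 were tested and 10 passed, 5 higher and 5 lower, which is 24.4% against the 11.7% of all tested genes, and their median log2 difference was 0.0099. The 11.7% includes many low genes, and 2010 of 10387 genes passed with a filter at a mean of 5 CPM. No gene of the other BCL2 family list passed among 6 tested of 16 (edgeR, 0 at an unadjusted p under 0.05). Bmf, a BH3-only gene held on the cytoskeleton, had the smallest adjusted p of that list, 0.314, with a log2 difference of -0.27. Bcl2a1a, Bcl2a1b, Bcl2a1d and Pmaip1 had 0 counts in every library. Bok, a BAX-like member, had at most 13 counts, and Bik, Hrk and Bcl2l10 had at most 2. None of the 9 genes of cytochrome c release and the apoptosome passed (edgeR, 1 at an unadjusted p under 0.05); Htra2, a protease released from mitochondria, had a log2 difference of 0.07 (adjusted p = 0.179). The death receptor list gave 0 of 5 tested (edgeR, 1 at an unadjusted p under 0.05), and its adaptor Fadd had a log2 difference of -0.10 (adjusted p = 0.191).

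Downstream of the members, 3 of 6 tested caspases passed. Casp9, the initiator caspase of the apoptosome, had 29.2, 28.7, 26.4 and 25.8 CPM with scramble and 22.8, 22.7, 22.5 and 22.2 CPM with Klf4 siRNA, replicates 1 to 4 each, with no overlap. Its log2 difference was -0.31 (standard error 0.043; edgeR adjusted p = 4.6e-05). Of 4 tested inhibitors of apoptosis Birc5, the gene of survivin, which also acts in cell division, was higher by 0.14 (edgeR adjusted p = 0.0122). The Birc5 call was lost without the first (0.0745) or the second (0.0673) scramble library or the third Klf4 siRNA library (0.0547), in batch 1 alone (0.0702) and with no batch term (0.121).

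Among 11 regulators of BCL2 proteins, 6 passed, 3 in each direction. Foxo3, a transcription factor that can induce Bcl2l11, had 59.0, 58.5, 55.2 and 56.0 CPM with scramble and 46.1, 49.2, 46.8 and 43.4 CPM with Klf4 siRNA. Its groups did not overlap, and the log2 difference was -0.31 (standard error 0.038; edgeR adjusted p = 1.01e-05). Mapk8, the gene of the kinase JNK1, which phosphorylates BIM and BCL2, was higher by 0.34 (edgeR adjusted p = 1.18e-05), with groups that overlapped over both batches and an adjusted p of 0.173 with no batch term. Akt1, whose kinase phosphorylates BAD, was lower at -0.17 (edgeR adjusted p = 1.97e-04; 0.0531 with no batch term). The other 3, named after their values were seen because they complete the count, were Foxo1 at 0.16 (edgeR adjusted p = 0.00262; 0.155 with no batch term), Fbxw7 at 0.15 (adjusted p = 0.0395) and Bag1 at -0.12 (adjusted p = 0.0122). Exons of Foxo1 share 7.78% of their length with Gm20402 on the opposite strand. Fbxw7, a ubiquitin ligase subunit that targets MCL1, passed in 5 of 17 alternatives and lost its call when any library other than scramble replicate 4 was left out, with adjusted p up to 0.210. Bag1 lost its call without scramble replicate 1 (0.101) or scramble replicate 2 (0.0584), with no batch term (0.0964) and with the replicate block (0.0509).

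**Figure D5:**
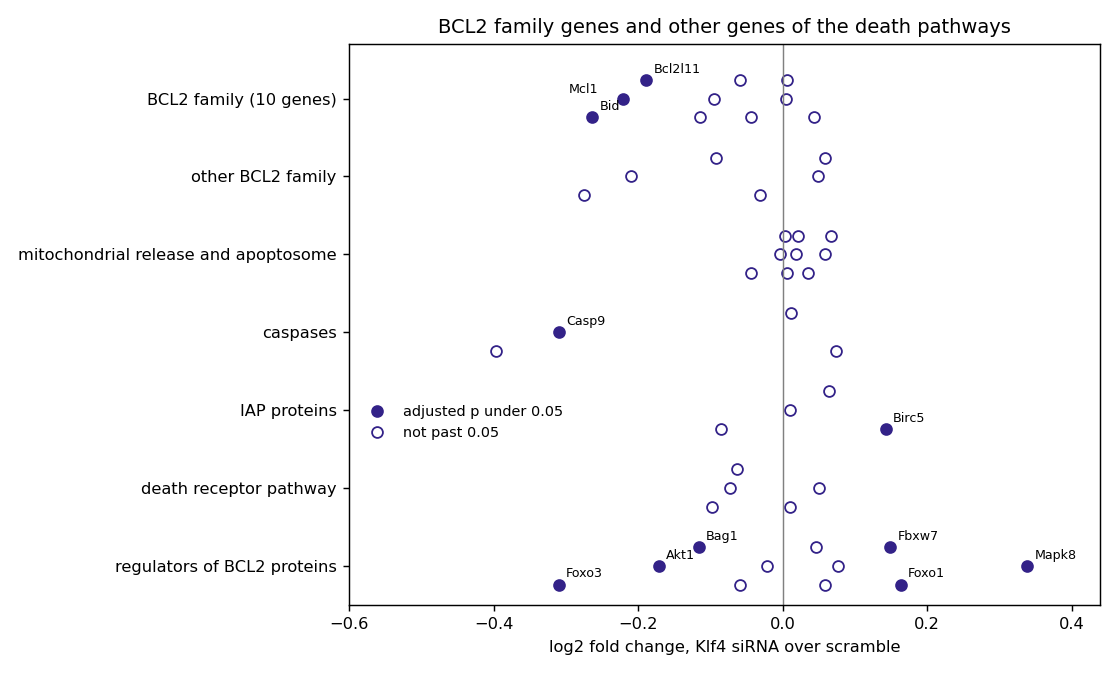
Log2 difference of Klf4 siRNA from scramble for the members and for the tested genes of the 6 pathway lists, with 2 caspases left out, filled where the edgeR adjusted p was under 0.05. Filled points lie on both sides of 0 among regulators, Casp9 lies at -0.31, and the 3 filled members all lie below 0.

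Genes with library-to-library patterns most like those of the 3 called members were ranked by Pearson's r of log2 CPM over the 8 libraries after removal of each batch's mean, among 9346 genes with at least 10 CPM. For Mcl1 they were Stx7 (r = 0.994), Kctd10 (0.994) and Golt1b (0.993), whose treatment log2 differences were -0.24, -0.25 and -0.50. For Bid they were Rab3d (r = 0.992), Ubac1 (0.991) and Gpatch11 (0.991), with treatment log2 differences of -0.08, -0.17 and -0.12. For Bcl2l11 they were Wdr41 (r = 0.986), Tada2b (0.985) and Cyp20a1 (0.983), with log2 differences of -0.07, -0.13 and -0.07. These r values are the highest of 9346 over 8 libraries that share the treatment contrast, and they carry no p.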

How the data were processed

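Poly(A) RNA of 8 alphaTC6 libraries, 4 per treatment, was measured. The deposited unit is the raw read count per gene made by the authors. The submitters' processing notes name FastQC, STAR, featureCounts and DESeq2 with build mm10, without versions or roles; the table's name points to adapter trimming. The annotation and the use of strand in counting are not given in the sources used here. All 55536 gene IDs and symbols matched GENCODE M21, which gave positions and exon lengths, and 0 columns were left unmapped. Ddit3 had more than 1 gene ID, and the one with more counts was used.

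Counts were filtered with filterByExpr (minimum count 10), scaled by TMM and fitted with edgeR 4.0.16 (R 4.3.3) by quasi-likelihood with treatment and batch, after the design text, which names edgeR with batch correction. P-values were adjusted over all 16333 tested genes by Benjamini and Hochberg, with 0.05 as the threshold. A log2 difference within a batch compares mean log2 CPM (prior count 2). RPKM divided CPM by the length of all exons of a gene. P-values measure the spread between these libraries. On simulated counts with 16132 genes for this comparison, the test recovered 57.1% of log2 changes of 0.3 and 88.7% of log2 changes of 1, and 14 of 156 calls were false.

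Members and pathway lists were chosen with earlier results of these data known. Genes named beyond the members were up to 3 called genes per list, or the one with the smallest adjusted p where none passed, and the 3 genes most like each called member; further called pathway genes were named after their values were seen. Promoter windows were searched over the bases before each start only, since the bases after it are transcribed. Alternatives were other scalings (DESeq2 size factors, library size), DESeq2 1.42.0, limma-voom (limma 3.58.1), other filters, other handling of batch, and each library left out. Some genes of the lists are counted and not reported here by name.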

Additional observations from a re-analysis of the deposited data

Results flagged for a closer look

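In 66 groups of 4 libraries (the members and the named genes, by treatment), 6 had an extreme library whose gap to its neighbour was, as a share of the group's range, above Dixon's 95% critical value, and chance gives about 1 in 20, or 3.3. Bid was highest in Klf4 siRNA replicate 3, with a gap of 0.888 of the range; that library is the only Klf4 siRNA library of batch 2, where Bid was also higher among scramble libraries. Bbc3 was highest in Klf4 siRNA replicate 1 (0.892) and Bax in Klf4 siRNA replicate 2 (0.843). Among pathway genes, Fadd was lowest in Klf4 siRNA replicate 3 (0.888), Bmf was highest in scramble replicate 1 (0.844) and Birc5 was highest in scramble replicate 4 (0.858). Fadd was also lower in batch 2 among scramble libraries, with means of 21.6 CPM in batch 1 and 19.8 CPM in batch 2. The rate of 1 in 20 takes no account of batch.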

How the results depend on the processing

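Without a batch term 409 genes passed in the treatment comparison in place of 1909, and 1 member, Mcl1, in place of 3. In batch 1 alone 1232 genes and 4 members passed. Whether the replicate numbers pair the libraries was not settled. Same-numbered libraries correlated at 0.492, 0.416, 0.72 and -0.34, and after batch removal at -0.000528, -0.0397, -0.302 and 0.116. Removing the mean of a small batch lowers such values within that batch, so they cannot exclude pairing. By a chi-square distance (lower is closer), scramble replicates 1, 2 and 3 were each nearest to the same-numbered Klf4 siRNA library, at 10.42, 18.25 and 18.34. Scramble replicate 4 was at 86.17 from Klf4 siRNA replicate 4, of the other batch, and at 47.09 from Klf4 siRNA replicate 3. A replicate block used instead of batch left 1220 genes and 3 members past the threshold. Leaving out each library gave 934 to 2021 genes and 3 to 4 members, with 934 without scramble replicate 1, 1012 without scramble replicate 2 and 1232 without Klf4 siRNA replicate 3. Members differing by batch numbered 3 to 5 over the same fits, the lowest without Klf4 siRNA replicate 3, and the interaction gave 0 to 13 genes, the highest without scramble replicate 3; it could not be fitted without Klf4 siRNA replicate 3.

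The log2 difference changed sign for 2 members that passed in no fit. Bcl2l1 was -0.018 with no batch term and -0.017 with the replicate block, and -0.0018 to 0.017 with a library left out. Bax was -0.00021 in batch 1 alone and -0.013 to 0.021 with a library left out. Of 170 pairs of a member and an alternative for treatment, 158 kept direction and side of the threshold, 2 lost the call, 3 gained it and 7 changed sign. The cause of these shifts was not tested. Low genes were recovered less often: the simulated recovery of log2 changes of 0.3 was 57.1% over all genes and 86.2% at 10 CPM or more. No smaller change was simulated, and the member estimate furthest from 0 was -0.26 for Bid. Recovery at the sizes seen for the members is therefore not known.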
